A study of Homo sapiens with 5 samples.

Results

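The urea cycle genes CPS1, NAGS, SLC25A15, ASS1, ASL and ARG2 were described across nuclei of 5 human lung adenocarcinoma cell lines. The 6 genes were taken by symbol from the 36601 genes of the deposited count matrix, and all 6 were found. The lines H2228, H1975, A549, H838 and HCC827, all untreated, were cultured separately, frozen, mixed, and processed as nuclei with the 10X Multiome protocol, which reads RNA and open chromatin (ATAC) under one barcode. The droplets were divided into an 80% and a 20% portion, each giving 1 RNA and 1 ATAC library. All nuclei of one line come from one culture.

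The urea cycle turns ammonia into urea. In the mitochondrion, carbamoyl phosphate synthetase 1 (CPS1) joins ammonia and bicarbonate, NAGS makes the N-acetylglutamate that CPS1 needs, and the carrier SLC25A15 moves ornithine and citrulline across the inner membrane. In the cytosol ASS1 joins citrulline to aspartate, ASL splits the product into arginine and fumarate, and an arginase releases urea and ornithine. ARG2 is the mitochondrial arginase found outside the liver, and ARG1 is the liver form. The complete cycle belongs to the hepatocyte, whereas ASS1 and ASL also make arginine in many other cells.

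With 1 library per portion there were no replicates, so no test was made and nuclei were not treated as samples. The 80% portion held 6557 nuclei, 95455518 RNA molecules (UMIs) and 63920767 ATAC counts in 158342 peaks. The nuclei fell into 5 RNA clusters, formed without the members and the other pathway genes and numbered by size. They held 2485, 1458, 1450, 837 and 327 nuclei, with a median of between 9135.5 and 15887 UMIs per nucleus. Cluster 0 was led by NLGN1, L3MBTL4 and FOXP2, cluster 1 by RBFOX3 and IGSF11, cluster 2 by ZBTB46-AS1, CARD18 and LINC00383, cluster 3 by PLK5, AC073365.1 and ZNF676, and cluster 4 by AC090578.1, EGFR and PIP4K2C. The clusters were not matched to the lines, because the study's line assignments were not used here. Nuclei of the 20% portion were placed in these clusters by their RNA profile, and 159 barcodes occurred in both portions. Levels are CPM, counts scaled to the total of a cluster, with exact 95% Poisson intervals that cover counting error only. They are compared between clusters and not between genes.

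The sequences below belong to the 3 members with at least 100 UMIs whose RNA differed most between clusters. They are the middle of a CPS1 peak that was open in 1 cluster, and the 250 bases before the starts of ASL and ARG2, whose promoter peaks are described further on. Capitals mark matches, on either strand, to the CCAAT box (CCAAT), the GC box (GGGCGG) and the cAMP response element (TGACGTCA).
CPS1 upstream peak, chr2:210548932-210549231, plus strand, hg38: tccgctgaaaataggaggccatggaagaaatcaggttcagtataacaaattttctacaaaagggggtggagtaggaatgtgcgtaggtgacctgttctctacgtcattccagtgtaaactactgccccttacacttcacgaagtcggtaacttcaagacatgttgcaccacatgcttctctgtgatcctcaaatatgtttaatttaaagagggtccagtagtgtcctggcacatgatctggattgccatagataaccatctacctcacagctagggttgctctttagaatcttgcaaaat
ASL promoter, chr7:66075569-66075818, plus strand, RefSeq on GRCh38: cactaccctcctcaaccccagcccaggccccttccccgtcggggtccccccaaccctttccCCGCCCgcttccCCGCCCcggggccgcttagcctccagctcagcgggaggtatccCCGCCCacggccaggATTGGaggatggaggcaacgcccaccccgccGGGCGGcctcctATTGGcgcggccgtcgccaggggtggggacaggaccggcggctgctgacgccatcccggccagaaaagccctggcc
ARG2 promoter, chr14:67619670-67619919, plus strand, RefSeq on GRCh38: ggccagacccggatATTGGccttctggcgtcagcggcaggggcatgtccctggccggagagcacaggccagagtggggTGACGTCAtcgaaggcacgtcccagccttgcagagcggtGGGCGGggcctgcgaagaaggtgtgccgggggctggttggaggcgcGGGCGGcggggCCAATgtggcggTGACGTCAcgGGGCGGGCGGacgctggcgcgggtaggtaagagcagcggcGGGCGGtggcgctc

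The ARG2 window held 2 TGACGTCA matches, 5 GC boxes, some of which overlap, and 2 CCAAT boxes. TGACGTCA occurred in 1.65% of 35116 promoter windows of this length, GGGCGG in 42.6% and CCAAT in 32.0%. The ASL window held 4 GC boxes and 2 CCAAT boxes. No match was found in the CPS1 peak to any of 9 motifs searched, which also included the TATA box (TATAAA), the E-box (CACGTG), the AP-1 motif (TGANTCA), the C/EBP motif (TTGCNNCAA), the forkhead motif (TGTTTAC) and a form of the HNF4 motif (CAAAGTCCA). Among the middle 300 bases of 158289 peaks, the HNF4 form occurred in 0.53% and the AP-1 motif in 33.8%. These matches describe letters and not bound factors.

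CPS1 had the most uneven RNA of the 6 genes. Its level was 96.3 CPM (91.3 to 101) in cluster 1, 15.6 CPM (13.7 to 17.8) in cluster 3, 6.22 CPM in cluster 0, 3.12 CPM in cluster 4 and 1.73 CPM (1.19 to 2.43) in cluster 2. Cluster 1 thus stood 14.3-fold (13.0 to 15.9) above the other clusters pooled. The intervals of clusters 1, 3 and 0 were apart from those of their neighbours in this order, and the intervals of clusters 4 and 2 overlapped. The 20% portion gave 86.9 CPM in cluster 1, 27.0 in cluster 3, 7.00 in cluster 0 and 7.25 in cluster 2. No CPS1 UMI was seen there in the 53 nuclei of cluster 4, which allows a level of up to 3 counts, or 4.82 CPM. Cluster 1 was the highest in both libraries. Its fold over the other clusters pooled was lower in the 20% portion, 8.85 (6.97 to 11.3) against 14.3 (13.0 to 15.9), with intervals apart. In the 80% portion cluster 1 stood 6.16-fold above cluster 3. The levels of clusters 2 and 3 differed between the libraries beyond their intervals. Genes that were highest in cluster 1 and at least 4 times the next cluster made up 1.55% of the 16913 genes with at least 100 UMIs, and CPS1 was the member among them.

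The CPS1 RNA of cluster 1 was concentrated in a small part of its nuclei. Of the 1458 nuclei, 1191 had no CPS1 UMI, or 81.7%, where a Poisson spread of the same molecules over the nuclei by depth would leave 40.4% without one. Another 100 nuclei had 1 or 2 UMIs, and 167 nuclei, 11.5% (exact binomial interval 9.86 to 13.2), had 3 or more and held 91.0% of the CPS1 UMIs of the cluster. The median among these 167 was 6 UMIs and the highest nucleus had 30. The excess of nuclei at 0 over the Poisson share was 41.3 percentage points, the largest among the 5309 genes with 500 to 5000 UMIs in cluster 1, where the median excess was 2.20 points. An excess of at least 20 points was seen in 0.414% of these genes, and the genes next to CPS1 in rank were CEACAM6 with 30.7 and CENPF with 29.9 points. In the 20% portion 218 of 256 nuclei of cluster 1 had no CPS1 UMI, 85.2% against 54.2% for a Poisson spread, and 22 nuclei had 3 or more. In both libraries cluster 1 thus held many nuclei without CPS1 and few nuclei with several UMIs, and the Poisson intervals on its CPS1 level are too narrow for that reason. The other members showed no such split in their highest clusters. ASL in cluster 3, for example, was at 0 in 23.1% of the nuclei against 19.3% for a Poisson spread.

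The nuclei with 3 or more CPS1 UMIs were like the rest of cluster 1 in depth. Their median was 9151 UMIs against 9050 in the nuclei without CPS1, and doublets were called in 4.19% and 4.28% of them, respectively. HNF4A, a liver and gut transcription factor, stood at 33.1 CPM (25.1 to 42.9) in these nuclei and 32.3 CPM (29.1 to 35.7) in those without CPS1. FGB, which encodes the fibrinogen beta chain, was at 143 CPM (126 to 162) and 110 CPM (104 to 116). Over all 6557 nuclei CPS1 followed CNTN1 (r = 0.29), ALDH1A1 (r = 0.28) and MTUS1 (r = 0.26), values that fell to 0.079, 0.049 and 0.094 within cluster 1.

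**Figure D1:**
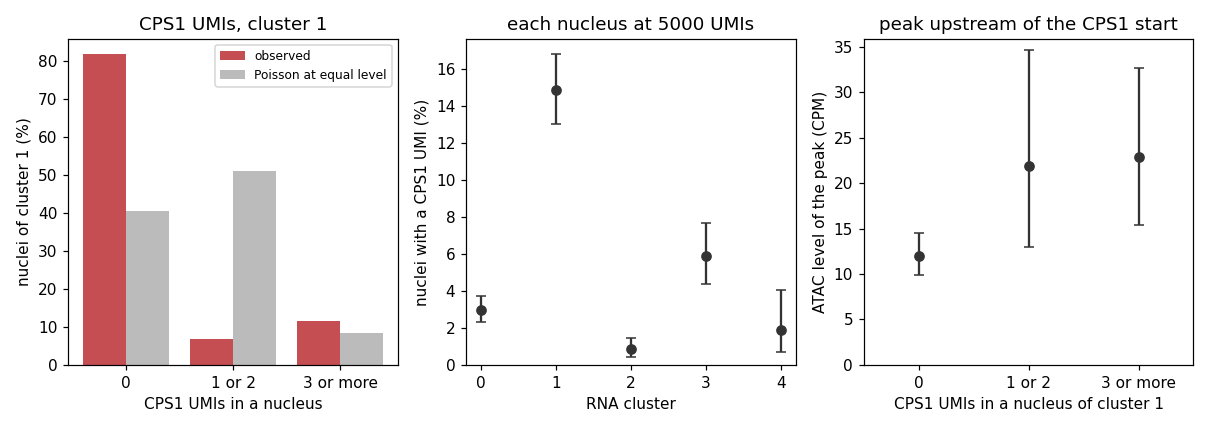
CPS1 in single nuclei of the 80% portion. The left panel gives the percent of nuclei of cluster 1 by CPS1 UMIs, observed and under a Poisson spread, the middle panel the percent of nuclei with a CPS1 UMI by cluster with every nucleus thinned to 5000 UMIs, and the right panel the ATAC level of the upstream peak by CPS1 UMIs of the nucleus. Bars on points are exact 95% intervals. Nuclei at 0 exceed the Poisson share by 41.3 percentage points.

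Because clusters differed in depth, each nucleus was thinned to 5000 UMIs and the 101 shallower nuclei were left out, between 3 and 38 per cluster. CPS1 then had a UMI in 14.9% (13.1 to 16.8) of cluster 1, 5.88% (4.38 to 7.69) of cluster 3, 2.98% of cluster 0, 1.89% of cluster 4 and 0.838% of cluster 2. Without thinning the shares of clusters 1 and 3 were close, 18.3% and 17.1%, while their levels differed 6.16-fold. In cluster 3, 12 of 837 nuclei had 3 or more CPS1 UMIs, 1.43% against 0.456% for a Poisson spread. There 82.9% of nuclei had none, against 76.3% for a Poisson spread. The Poisson intervals on the CPS1 level of cluster 3 are therefore also too narrow. Free RNA and doublets can carry cluster 1 RNA into other clusters, and their part in the lower CPS1 levels was not tested. As a share of the cluster 1 level, CPS1 was at 16.2% in cluster 3, 6.46% in cluster 0, 3.24% in cluster 4 and 1.79% in cluster 2. Other genes high in cluster 1 gave, in cluster 3, 5.19% for FGB, 4.94% for APOH and 2.52% for HNF4A. In clusters 2 and 4 both FGB, at 3.55% and 9.60%, and APOH, at 4.26% and 4.76%, lay above CPS1, and in cluster 0 APOH did, at 9.03%. The 10 leading genes of cluster 1 gave at most 3.27% in cluster 3 and 3.18% in cluster 0. They gave at most 2.75% in cluster 4 and 1.62% in cluster 2. All these shares lay below CPS1, but the 10 genes were chosen for low levels outside cluster 1. After doublet calls were removed CPS1 was at 11.8% in cluster 3 and 5.38% in cluster 0. The medians of the 10 leading genes were then 0.630% and 0.431%.

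CPS1 lies on chromosome 2 from 210477682 to 210679107 (hg38, plus strand), with 4 annotated starts, the main one at 210556599. Of 10 peaks within 100 kb, 4 had at least 100 counts. No peak lay within 1000 bp of the main start. The peak near the first start, at 210476261 to 210477161, touched an exon of the neighbouring gene LANCL1, and it differed little between clusters, with 15.3, 16.3, 16.8, 9.86 and 10.4 CPM in clusters 0 to 4. A peak at 210548625 to 210549538, in a CPS1 intron and 7061 bp upstream of the main start, was open in cluster 1. Its level was 14.0 CPM (11.9 to 16.4) there and at most 0.781 CPM (0.337 to 1.54) in any other cluster, from 158 and at most 14 counts. In the 20% portion it had 38 counts in cluster 1, or 18.9 CPM, 4 counts in cluster 0 and none in clusters 2, 3 and 4. Peaks highest in cluster 1 and at least 4 times the next cluster made up 1.65% of 100354 peaks. This peak was chosen after its values were seen, and its middle is the sequence printed above. It also touches an exon of ENSG00000288732, a gene on the other strand. Because the use of strand in counting is not given, reads of CPS1 and ENSG00000288732, and of ARG2 and VTI1B, cannot be told apart where these genes overlap. The same holds for ARG2 and ENSG00000286861 and for SLC25A15 and ENSG00000290476. ENSG00000249319 overlaps ASL, MIR621 overlaps SLC25A15 and CPS1-IT1 overlaps CPS1, each on the strand of that member.

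The same peak was compared with the CPS1 RNA nucleus by nucleus within cluster 1. It stood at 22.9 CPM (15.4 to 32.7) in the 167 nuclei with 3 or more CPS1 UMIs, 21.9 CPM (13.0 to 34.6) in those with 1 or 2, and 12.0 CPM (9.89 to 14.5) in the 1191 nuclei without CPS1. Counted by nuclei, 15 of 167 had a count in the peak, 8.98% (5.11 to 14.4), against 52 of 1191, 4.37% (3.28 to 5.69). Between the nuclei with 3 or more UMIs and those without, the intervals of the levels were apart and those of the shares overlapped. Even values made up 90.1% of ATAC entries above 0, so counts may come in pairs and the intervals of ATAC levels are too narrow. Genes within 1 Mb of CPS1 showed no like excess, with 11 genes summing to 1.06 and 45 peaks to 1.05 times the mean of the other clusters.

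**Figure D2:**
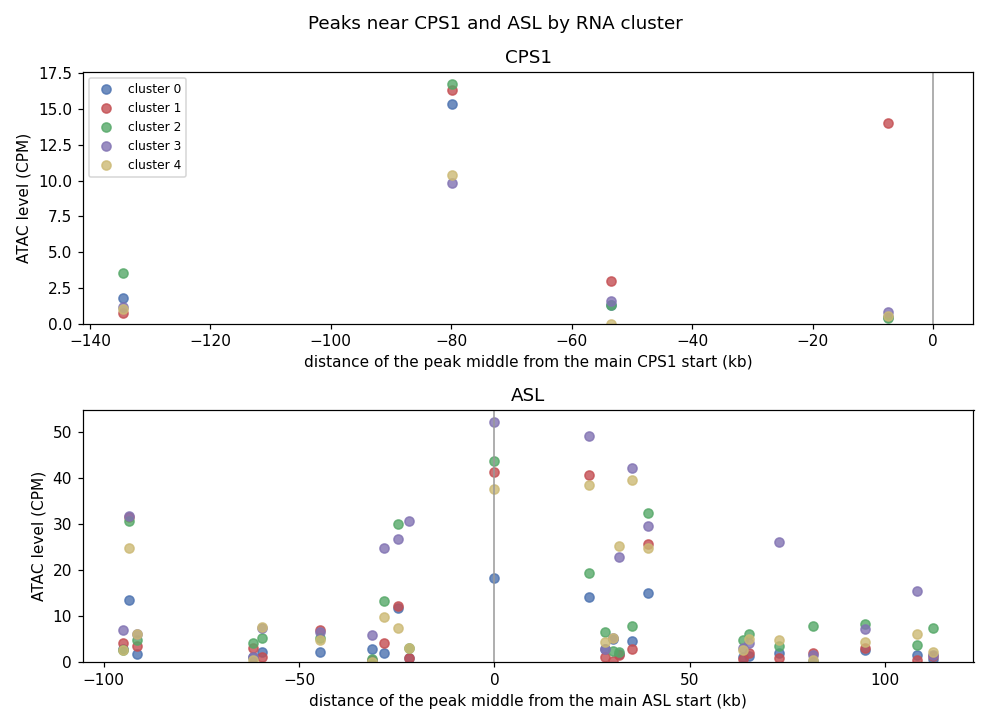
Peaks with at least 100 counts within 100 kb of CPS1 and ASL. The horizontal axis is the distance of each peak from the main start of the gene in kb, and the vertical axis is the ATAC level in CPM of each RNA cluster in the 80% portion. The peak just before the CPS1 start is high in cluster 1 alone, at 14.0 CPM, while several peaks on both sides of ASL are highest in cluster 3.

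NAGS and SLC25A15, which serve the mitochondrial steps with CPS1, did not share its pattern. NAGS had 70 UMIs in all, under the minimum of 100 for a call, with 4 UMIs in cluster 1, 0.272 CPM (0.0742 to 0.697), and 15 UMIs in cluster 4, 3.12 CPM (1.75 to 5.15). Its intervals overlapped between all neighbours in the order, and the highest cluster in the 20% portion was cluster 3, with 7 UMIs. The lowest NAGS value was in cluster 1, the CPS1 cluster, but its interval overlapped those of clusters 0 and 2. The NAGS promoter peak on chromosome 17, 44004568 to 44005235, had 200 counts, with 4.59 CPM in cluster 3, 3.84 in cluster 0, and 1.30 to 2.14 in clusters 1, 2 and 4. A deeper peak inside NAGS, at 44006526 to 44007435 and 1904 bp from the start, had 2258 counts. It was highest in cluster 1, at 47.2 CPM (43.3 to 51.4), with 28.5 to 41.6 CPM elsewhere. The most uneven of the deeper peaks near NAGS, inside HDAC5 at 44095518 to 44096401, was at 51.7 CPM in cluster 1 and at most 15.7 CPM elsewhere. The wider region was also highest in cluster 1. Its 262 peaks within 1 Mb summed to 3671 CPM there and to between 2239 and 2522 CPM in the other clusters. The part of the region in the levels of these 2 peaks was not tested.

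SLC25A15 was the most even member. Its RNA was 11.8 CPM (10.3 to 13.5) in cluster 2, 11.4 in cluster 1, 8.95 in cluster 4, 7.17 in cluster 3 and 6.37 (5.62 to 7.18) in cluster 0, a range of 1.86-fold. Neighbours in this order overlapped throughout, while the highest and lowest were apart. Cluster 2 was also the highest in the 20% portion, with 15.7 CPM. Its likeness to other genes over nuclei was weak, with r at most 0.085, reached by HSPD1, ahead of DDX21 and LDHB. The promoter peak on chromosome 13, 40789140 to 40790002, had its highest level in cluster 2 too, 26.7 CPM, and its lowest in cluster 3, 6.93 CPM (5.42 to 8.75). The surroundings moved with it. In cluster 2 the 14 other genes within 1 Mb summed to 1.47 times and 125 peaks to 1.44 times the mean of the other clusters. The median of these genes was 1.33-fold. SLC25A15 was at 1.54-fold over the other clusters pooled, a different denominator, so it cannot be ranked against the sums. The part of the region in the SLC25A15 result was not tested. GENCODE lists 5 pseudogene copies of SLC25A15, 14 of ASS1 and 1 of ASL, so reads of these genes may have been split or lost in counting.

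ASS1, the enzyme of the first cytosolic step, was highest in clusters 3 and 0 and lowest in clusters 1 and 4. The levels were 29.1 CPM (26.4 to 32.0) in cluster 3, 25.4 in cluster 0, 20.9 in cluster 2, 9.87 (8.33 to 11.6) in cluster 1 and 9.36 in cluster 4. The clusters thus formed a higher group of 3 and a lower group of 2, and the 20% portion kept this order with 26.4, 25.1, 18.0, 13.0 and 8.04 CPM. CPS1 and ASS1 therefore had their RNA highest in different clusters, and cluster 1, where CPS1 was highest, had ASS1 RNA at 9.87 CPM. Over nuclei ASS1 followed the interferon-induced genes IFITM3 (r = 0.17), IFI16 (r = 0.16) and BST2 (r = 0.15).

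The ASS1 promoter peaks on chromosome 9 did not follow the RNA. The peaks at 130444469 to 130445256 and 130445381 to 130446053 summed to 26.3 CPM in cluster 0, 24.6 in cluster 4, 18.6 in cluster 2, 15.6 in cluster 1 and 14.5 (12.2 to 17.0) in cluster 3. Cluster 4 thus had high promoter levels and low RNA, and cluster 3 had low promoter levels and high RNA. The RNA intervals of clusters 4 and 1 overlapped. The 245 peaks within 1 Mb had the same extremes as the promoter, with 2531 CPM in cluster 0 and 1704 CPM in cluster 3. They summed to 1921 CPM in cluster 4. The part of the region in the promoter levels was not tested. In the 20% portion the ASS1 promoter peaks were again low in cluster 3, at 21.0 CPM. Cluster 4 led with 36.4 CPM (23.6 to 53.8), but the intervals of all 5 clusters overlapped. Of 23 peaks within 100 kb with at least 100 counts, 14 were uneven, meaning that the highest cluster had at least 4 times the lowest, near the 59.3% of all peaks of that depth. One of these, intergenic at 130570092 to 130570991, reached 21.0 CPM (19.4 to 22.8) in cluster 0 and 0.799 CPM in cluster 1. A peak inside ASS1 at 130499638 to 130500546 had 15.6 CPM in cluster 4 and 0.854 CPM in cluster 2.

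ASL, which releases arginine and fumarate, had an order of clusters that was clear at each step. Its RNA was 106 CPM (101 to 112) in cluster 3, 57.8 in cluster 4, 45.0 in cluster 2, 37.1 in cluster 1 and 20.6 (19.2 to 22.0) in cluster 0. The intervals of all neighbours were apart. The 20% portion gave the same order, with 109 CPM in cluster 3 and 21.6 in cluster 0. There, however, the intervals of clusters 4, 2 and 1 overlapped, and clusters 2 and 1 were close, at 40.9 and 40.6 CPM. Cluster 3 stood 3.36-fold (3.16 to 3.58) above the other clusters pooled, and 3.42-fold in the 20% portion. After thinning, 40.5% (37.2 to 43.9) of the nuclei of cluster 3 and 9.81% (8.66 to 11.1) of cluster 0 had an ASL UMI, and the difference was thus spread over many nuclei. The genes most like ASL over nuclei were DHRS2 (r = 0.31), MECOM (r = 0.28) and ZNF676 (r = 0.28), and KRT7 came first within cluster 3 (r = 0.26).

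The ASL promoter peak also had its highest level in cluster 3, though its interval there overlapped that of cluster 2. This peak on chromosome 7, 66075356 to 66076249, was at 52.1 CPM (47.7 to 56.7) in cluster 3, 43.6 (39.5 to 48.0) in cluster 2, 41.3 in cluster 1, 37.6 in cluster 4 and 18.1 (16.6 to 19.7) in cluster 0. Cluster 0 was the lowest in both readouts, while cluster 4 came before clusters 2 and 1 in RNA and after them in the promoter peak. Of 24 peaks near ASL with at least 100 counts, 16 were uneven, near the 59.3% of all peaks of that depth. The peak at 66110606 to 66111514 was open in clusters 3 and 4, with 42.2 and 39.4 CPM, and at most 7.80 CPM elsewhere. In the 20% portion it was open in cluster 3, at 52.3 CPM, but cluster 4 had 6 counts, or 8.74 CPM, the same as cluster 2. An intergenic peak at 66053620 to 66054369, chosen after its values were seen, was open in cluster 3, at 30.7 CPM, and at most 3.11 CPM elsewhere. The wider region moved in the same direction. In cluster 3 the 19 other genes within 1 Mb had a median of 1.76-fold against the other clusters. These genes summed to 1.48 times and 166 peaks to 1.63 times the mean of the other clusters. Whether the region accounts for the ASL value was not tested.

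ARG2, the mitochondrial arginase, was highest in cluster 3, with 17.4 CPM (15.4 to 19.7), then 11.6 in cluster 2, 7.06 in cluster 0, 3.95 in cluster 4 and 3.68 (2.76 to 4.80) in cluster 1. Clusters 4 and 1 overlapped and the other neighbours were apart. In the 20% portion clusters 2 and 3 were equal within error, at 13.6 and 13.5 CPM. ARG1, the liver arginase, had 111 UMIs in all and at most 1.53 CPM in any cluster. The ARG2 promoter peak on chromosome 14, 67619380 to 67620258, was at 60.9 CPM in cluster 3, 48.7 in cluster 4, 44.7 in cluster 0, 33.0 in cluster 1 and 27.1 in cluster 2. Cluster 3 led in both readouts, but cluster 2, next in RNA, had the lowest promoter level. A smaller promoter peak at 67618287 to 67618921 lay between 5.98 and 8.89 CPM in all clusters. The most uneven of the deeper peaks near ARG2, inside ZFYVE26 at 67738723 to 67739644, was at 44.5 CPM in cluster 1, where ARG2 RNA was lowest, and at most 13.8 CPM elsewhere, but in the 20% portion at 28.9 CPM in cluster 1, 23.3 in cluster 4 and 21.9 in cluster 2. Over all nuclei ARG2 followed PLK5 (r = 0.14), APCDD1L-DT (r = 0.14) and SELENOM (r = 0.13). The 18 other genes within 1 Mb had a median of 1.49-fold in cluster 3 and summed to 1.45 times the mean of the other clusters. ARG2 was at 2.38-fold over the other clusters pooled, and the part of the region in this was not tested.

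**Figure D3:**
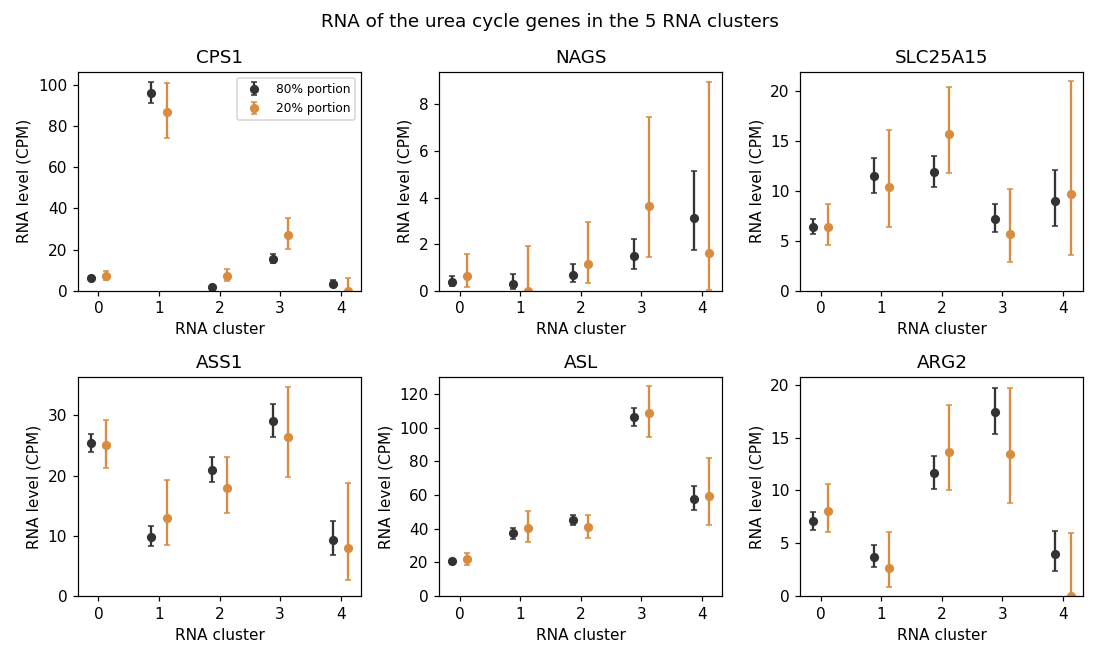
RNA level of the 6 genes in CPM by RNA cluster, for the 80% and the 20% portion. Points are 1 library each and bars are exact 95% Poisson intervals. CPS1 is highest in cluster 1, and ASL is highest in cluster 3 in both portions.

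A finer clustering, added after the data were seen, divided cluster 3 into cluster 3a with 471 nuclei, led by AL356804.1, AL683807.1 and VGF, and cluster 3b with 366 nuclei, led by the contractile gene TAGLN, the matrix gene MGP and AL139220.2. ARG2 was at 33.9 CPM (29.4 to 38.9) in cluster 3b and 6.66 CPM (5.08 to 8.57) in cluster 3a. The difference was 5.09-fold (3.80 to 6.91), and 6.04-fold (2.36 to 18.3) in the 20% portion. ARG2 in cluster 3a thus lay below its level in cluster 2, 11.6 CPM (10.1 to 13.3). ASS1 was also higher in cluster 3b, with 41.9 against 20.7 CPM, as was CPS1, with 22.5 against 11.1 CPM. ASL went the other way, with 90.8 CPM in cluster 3b and 116 CPM in cluster 3a. Of the 5 members with at least 100 UMIs in these nuclei, 3 were at least 2 times higher in cluster 3b, where 4.04% of 11326 genes were. CPS1 and ASS1 were at this threshold within counting error, at 2.03-fold (1.56 to 2.66) and 2.02-fold (1.66 to 2.45). With nuclei thinned to 5000 UMIs, the CPS1 shares overlapped, 7.10% (4.69 to 10.2) in cluster 3b and 4.91% (3.14 to 7.28) in cluster 3a. The clusters were cut from the RNA of the same nuclei, so these values are a description. Doublets were called in 8.20% of cluster 3b and 12.7% of cluster 3a.

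The ARG2 difference within cluster 3 was not seen at its promoter. The main promoter peak stood at 59.6 CPM in cluster 3b and 61.8 CPM in cluster 3a, and both ARG2 promoter peaks together at 68.8 (60.8 to 77.5) and 70.5 CPM (64.1 to 77.4). The promoter peaks of ASS1 were likewise close, at 15.5 and 13.8 CPM. Peaks inside ASS1 went both ways. The peak at 130446390 to 130447123 was at 10.9 CPM in cluster 3b and 3.49 CPM in cluster 3a. The peak at 130499638 to 130500546 was at 3.81 CPM in cluster 3b and 13.3 CPM in cluster 3a. Within cluster 3, ARG2 RNA followed VCAN (r = 0.28), VIM (r = 0.27) and ITGB1 (r = 0.25) over 837 nuclei. ASS1 followed NNMT (r = 0.24).

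**Figure D4:**
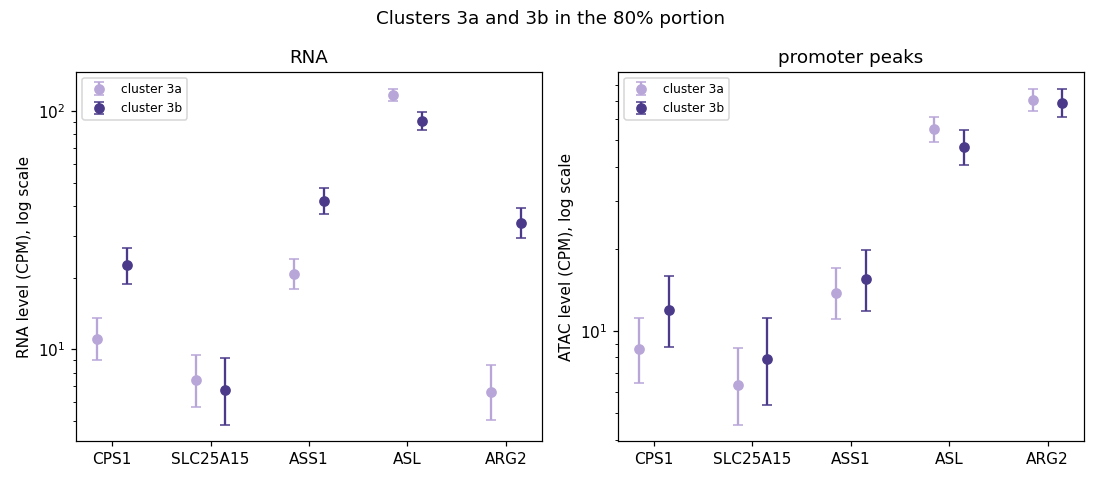
RNA (left) and promoter peak levels (right) of 5 urea cycle genes in clusters 3a and 3b of the 80% portion, in CPM on log axes with exact 95% Poisson intervals. The ARG2 points are 5.09-fold apart in RNA and overlap in the promoter peaks.

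Taking the 6 genes as a list, 5 had at least 100 UMIs. CPS1, ASL and ARG2 were uneven in RNA, where 35.2% of the 16913 genes tested were. CPS1 was also led by 1 cluster, with at least 2 times the next, as were 17.7% of genes. The median ratio of highest to lowest cluster was 4.74 for these 5 members and 2.71 for all genes tested. Near the threshold of 4, ARG2 was just inside at 4.74 and ASS1 just outside at 3.11. Of the 102 peaks near the 6 genes with at least 100 counts, 52 were uneven, against 59.3% of all peaks of that depth. In the 80% portion the highest cluster was the same in RNA and in the promoter peaks for ASL, SLC25A15 and ARG2 and differed for CPS1 and ASS1. That is, it was the same in 3 of 5 members, as it was in 50.3% of 12847 genes. The CPS1 promoter peak counted here was the one near the first start, which touched a LANCL1 exon. Its intervals in clusters 2, 1 and 0 overlapped. The peak 7061 bp upstream of the main CPS1 start was highest in cluster 1. No cluster held high levels of all members: in the 80% portion CPS1 was highest in cluster 1, ASS1, ASL and ARG2 in cluster 3 and SLC25A15 in cluster 2, with overlapping intervals to the next cluster for ASS1 and SLC25A15.

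The remaining step of the cycle, ornithine transcarbamylase (OTC), had 9 UMIs in 6557 nuclei. The ornithine carrier SLC25A2 had 8, the carbonic anhydrase CA5A 17 and the transcript CPS1-IT1, inside CPS1, 11. Of 51 other listed genes of the pathway and its surroundings 50 were in the matrix, 41 had at least 100 UMIs, 13 were uneven and 10 were led by 1 cluster, beside 35.2% and 17.7% of all genes tested. Among the carriers, arginine and glutamine genes, SLC7A2, a cationic amino acid transporter, stood at 149 CPM (144 to 155) in cluster 2 and at most 19.1 CPM elsewhere. NOS3, which makes nitric oxide from arginine, was at 6.70 CPM in cluster 3 against 0.419 in cluster 2, and NOS1 at 3.47 CPM in cluster 1 against 0.268 in cluster 3. GATM, the first enzyme of creatine synthesis, was at 4.89 CPM in cluster 3 and 3.88 in cluster 1. GLUL, which makes glutamine from ammonia, was lowest in cluster 1, the CPS1 cluster, with 7.97 CPM (6.59 to 9.55) against 44.5 CPM in cluster 0. AZIN1, a regulator of ornithine decarboxylase, reached 315 CPM in cluster 4 and at most 92.9 elsewhere. None of the proline and pyrimidine genes on the list was uneven, out of 5 and 3 tested.

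The list of factors known at liver urea cycle promoters, to which the kinase gene STK11 had been added, had 6 of 9 genes uneven and a median ratio of 15.5, beside 35.2% and 2.71 for all genes tested. The list was chosen with earlier results of these data known. HNF4A was at 31.9 CPM (29.1 to 35.0) in cluster 1 and at most 0.858 CPM elsewhere. FOXA2, a forkhead factor of liver and gut, was at 30.8 CPM in cluster 1 and 9.65 in cluster 3. CEBPA was at 7.63 CPM in cluster 1 and 2.57 in cluster 2. FOXA1 was shared by clusters 4, 1 and 0, at 22.7, 19.3 and 17.9 CPM, and PPARGC1A by clusters 2 and 1, at 14.2 and 13.9 CPM. STK11 was not uneven, with 13.8 CPM in cluster 1, 10.5 in cluster 2 and 39.0 in cluster 0. CEBPB and NR3C1, also on the list, were not uneven either. CEBPB was highest in cluster 2, where CPS1 was lowest, at 2.59-fold the next cluster. NR3C1 was highest in cluster 1, at 1.08-fold the next. After thinning, HNF4A had a UMI in 14.8% of cluster 1. The HNF4A level was the same in nuclei with and without CPS1 within error, as given above.

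Markers of other cell types were read beside these values. Of 7 hepatocyte markers, 5 were under 1 CPM in every cluster, among them ALB and APOA1, while FGB and APOH were at 115 and 39.4 CPM in cluster 1. The 7 together summed to 156 CPM in cluster 1 and to between 6.13 and 13.5 CPM in the others. Markers of enterocytes, which also use CPS1, summed to at most 4.77 CPM, a value reached in cluster 1. All nuclei came from the cultured lines, and the relation of these markers to the CPS1 result was not tested. Of the lung adenocarcinoma lineage markers, 4 genes summed to 7.08 CPM in cluster 1 and 5.39 in cluster 2, and to between 79.3 and 184 CPM in the other clusters. Epithelial markers summed to between 1374 and 9239 CPM.

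**Figure D5:**
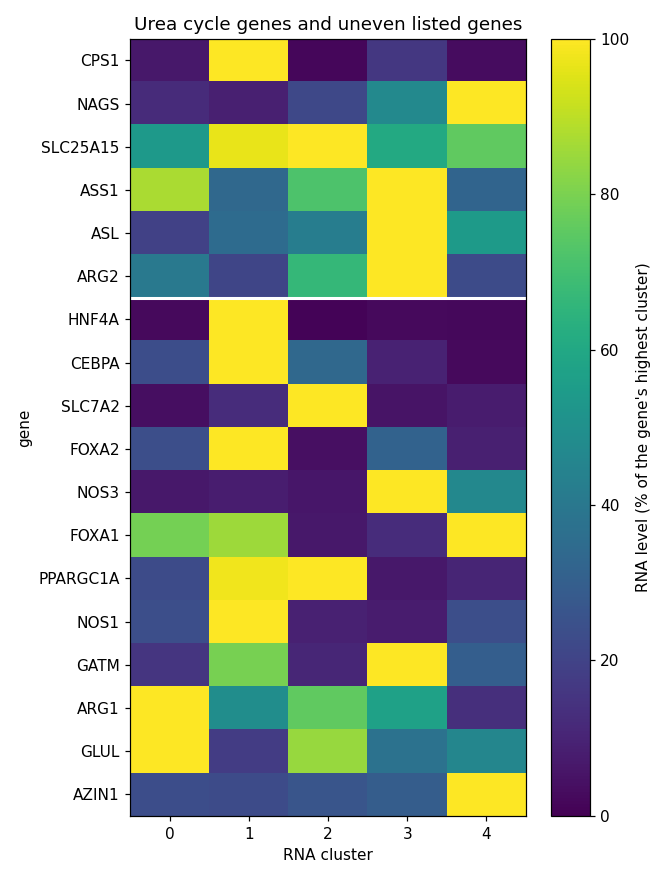
RNA level of the 6 urea cycle genes (above the white line) and of 12 listed genes called uneven, as a percent of the highest cluster of each gene, in the 80% portion. HNF4A, FOXA2, CEBPA and NOS1 are highest in cluster 1 with CPS1, while the other members are highest in other clusters.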

How the data were processed

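Nuclear RNA and open chromatin were read together, in 1 library each for the 80% and the 20% portion. The authors deposited whole-number counts per barcode without normalization, from Cell Ranger ARC 2.0.0 with hg38, per the file headers and the submitters' processing notes. The gene annotation and the use of introns and strand are not given in the sources used here, and each portion has its own peak set. No barcode was removed.

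The 2000 most variable genes, without the 57 members and listed genes, were reduced to 30 components and clustered by the Louvain method in Seurat 5.3.0 (20 neighbours, seed 0), at the lowest resolution with at least 5 clusters of at least 1% of the nuclei; 5 other seeds also gave 5 clusters. Counts were summed per cluster, giving CPM with exact 95% intervals. Placement by profile put 97.4% of the 80% nuclei back where they had been clustered. The cluster profiles included these same nuclei, so this share does not measure how well nuclei of the 20% portion were placed. Scrublet, run in scanpy 1.11.5, marked doublets. Promoter peaks lay within 1000 bp of a protein-coding start in GENCODE v44. A cluster without counts was set to 3 counts in ratios. The sum and call steps were tested on simulated data. Promoter sequences came from RefSeq, which matched all 6 members.

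The members and lists were chosen with earlier results of these data known. Named were all members, the 3 genes most like a member, the 10 uneven listed genes with the largest ratios and all promoter peaks. The 3 leading genes of each cluster with at least 1000 UMIs were also named. Sex-linked genes and 1 leading gene of cluster 1 were left out. For each member the most uneven peak with at least 500 counts was named. ARG1, GLUL, AZIN1, STK11, CEBPB, NR3C1, CEACAM6, CENPF, FGB, APOH, the genes most like a member within 1 cluster and the other peaks were chosen after their values were seen. Long reads were not used here, and 1 uneven listed gene is not reported here.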

Additional observations from a re-analysis of the deposited data

How the results depend on the processing

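The folds of the highest cluster over the others, the shares of nuclei, the likeness values and the count of uneven members were recomputed, giving 153 alternative values. Of these, 124 stayed near the main value, 28 moved further and 1 reversed. Near means within the counting interval for folds and shares and within 1.5 times for the count. No paired analysis was possible because each portion gave 1 library per assay and no test was made. In the 20% portion the RNA fold was 8.85 for CPS1, 1.47 for NAGS, 2.19 for SLC25A15 and 1.61 for ARG2. Its promoter fold, taken in the cluster where the promoter peaks were highest in the 80% portion, was 1.53 for CPS1 and 2.36 for ASL. These were cluster 2 for CPS1, cluster 3 for ASL and cluster 0 for ASS1. For ASS1 the promoter fold was 0.978, below 1 where the 80% portion gave 1.54, and NAGS had no value for want of a peak. The cause was not tested. Without doublet calls the CPS1 fold was 18.7. With the mean of the CPM of single nuclei it was 17.2, and that of ASS1 was 1.60. With peaks scored as present or absent the ASL promoter fold was 1.63. Finer clusters, added after the data were seen, gave 2.04 for ASS1 and 4.66 for ARG2. A threshold of 8 left 1 uneven member, CPS1.

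Shares of nuclei with a UMI in the highest cluster depend on depth by construction. Thinned to 2000 UMIs they were 10.6% for CPS1, 0.306% for NAGS, 1.93% for SLC25A15, 6.33% for ASS1, 17.0% for ASL and 4.54% for ARG2, and without thinning 18.3%, 4.28%, 14.1%, 35.5%, 76.9% and 22.7%. Within the highest cluster r was 0.079 for CPS1 with CNTN1, 0.058 for SLC25A15 with HSPD1 and 0.10 for ASL with DHRS2. Median-of-ratios scaling shifted ATAC levels by between -0.13 and 0.12 on the log2 scale and RNA levels by less than 0.1. Intervals cover counting error of 1 library, and the clusters were not matched to lines.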
